A study of Rattus norvegicus with 14 samples.

Results

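Of 7 complement genes and regulators examined, 5 had probe sets of their own on the array: C1r, C1s, C3, Serping1 and Cd55. The other 2, C2 and Cfb, were paired by the platform table only with 4 probe sets that it lists for both genes, so those probe sets were read by their identifiers and assigned to neither gene. The 7 genes were taken by symbol, and the 5 stand among 13184 genes measured in the series. None of the 5 was dim in any group by the limit given with the units, and no filter on low values was applied. The cells are neonatal rat ventricular myocytes, heart muscle cells taken into culture from the hearts of Sprague-Dawley pups aged 2 days. Every group shares that source, a pre-plating step meant to take out non-myocytes, and serum-free medium before stimulation. Unstimulated cells received the vehicle DMSO and carry a label of 90 min (n = 3). The other groups received phenylephrine (PE) at 100 µM, an alpha1-adrenergic agonist that makes these cells hypertrophy, for 6 h with DMSO (n = 2), 6 h with JQ1 (n = 3), 48 h with DMSO (n = 3) or 48 h with JQ1 (n = 3). JQ1 is a compound that blocks the bromodomains with which BET proteins bind acetylated histones. The protocol puts JQ1 or DMSO 6 h before PE, the series' design text puts PE first, and the JQ1 concentration is not stated in the labels.

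Complement is a cascade of secreted proteases and fragments that coats and lyses targets and calls in leukocytes. In its classical branch C1q binds the target and carries the proteases C1r and C1s, which cleave C4 and C2. The resulting enzyme cleaves C3, the protein on which all branches converge, and factor B (Cfb) joins C3 fragments in the alternative branch. Serping1 encodes C1 inhibitor, which inactivates C1r and C1s, and Cd55 encodes decay accelerating factor, a surface protein that takes apart the enzymes that cleave C3. The liver makes most of the circulating proteins, and stromal cells and macrophages make part of the supply within tissues.

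Values are log2 expression levels per probe set on Affymetrix arrays, so a difference of 1 is a 2-fold change. Array medians lay between 7.28 and 7.43, and within groups the correlation between arrays over probe sets was 0.9976 to 0.9986. A group mean below 6.23, the 30th percentile of gene means, is called dim, since the size of a change is uncertain at such levels. Changes are log2 fold changes ± standard error (SE) from 1 limma fit of all 14 arrays, and p-values were Benjamini-Hochberg adjusted across the 13184 genes, with 0.05 as the threshold. The labelled cell type was checked on markers: the 11 measured cardiomyocyte genes averaged 13.58 to 13.81 on every array. The average of the fibroblast genes was also well above the dim limit (9.02 to 10.58). Single fibroblast genes were dim in JQ1 groups, namely Tcf21 (means of 6.15 at 6 h and 6.18 at 48 h) and Mfap5 (6.09 at 48 h). The labels do not tell separate cultures from repeat arrays of 1 culture. The p-values therefore weigh changes against the spread of these arrays only, and that spread may be technical.

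The protease pair C1r and C1s stayed near its unstimulated level under PE and lost most of its signal by 48 h of JQ1. C1r stood at 11.71, 11.82 and 11.82 in unstimulated cells, at 11.72 and 11.75 after 6 h of PE, and at 11.74, 11.71 and 11.71 after 48 h of PE. With JQ1 it stood at 11.19, 11.18 and 11.13 at 6 h and at 9.94, 9.74 and 9.92 at 48 h. The 3 groups without JQ1 overlapped, whereas both JQ1 groups lay below all of them and apart from each other. JQ1 lowered C1r 1.48-fold at 6 h (-0.56 ± 0.059, adjusted p = 3.76e-06) and 3.61-fold at 48 h (-1.85 ± 0.053, adjusted p = 1.62e-11). PE alone moved it by -0.05 ± 0.059 at 6 h (adjusted p = 0.553) and -0.06 ± 0.053 at 48 h (adjusted p = 0.375), within its replicate spread.

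C1s, the protease that C1r activates, followed the same order under JQ1. Its levels were 11.59, 11.76 and 11.68 unstimulated, 11.66 and 11.63 after 6 h of PE, and 11.80, 11.84 and 11.81 after 48 h of PE. Under JQ1 they were 11.20, 11.21 and 11.21 at 6 h and 9.84, 9.85 and 9.99 at 48 h. The JQ1 arrays again lay below every DMSO array, and the 48 h PE arrays lay just above the unstimulated ones, by a gap of 0.045. C1s fell 1.35-fold with JQ1 at 6 h (-0.44 ± 0.054, adjusted p = 1.69e-05) and 3.81-fold at 48 h (-1.93 ± 0.048, adjusted p = 6.43e-12). Its small rise after 48 h of PE (0.14 ± 0.048, adjusted p = 0.0297) did not pass on repeating quantile normalization (adjusted p = 0.0642), in a fit of those 2 groups only (adjusted p = 0.0551), or without unstimulated replicate 1 or 3 or any one of the 3 DMSO arrays at 48 h of PE (adjusted p = 0.0526 to 0.126). In the RefSeq gene table of the GRCr8 rat assembly the 2 genes are direct neighbours on chromosome 4, with C1rl before C1r and Lpcat3 after C1s.

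C3, the hub of the cascade, did not respond to JQ1 at 6 h beyond its spread and fell by 48 h. Unstimulated cells gave 8.36, 8.67 and 8.66, the widest spread of any group for this gene. The values after 6 h of PE were 8.57 and 8.48 with DMSO, and 8.67, 8.55 and 8.57 with JQ1. After 48 h of PE they were 8.96, 8.77 and 8.90 with DMSO and 7.81, 7.80 and 7.87 with JQ1. The first 3 groups overlapped, the DMSO arrays at 48 h of PE lay above all others, and the JQ1 arrays at 48 h lay below all others. The gap was 0.62 to the group with the next lowest mean, DMSO with PE at 6 h, and the lowest unstimulated array (8.36) was nearer. PE raised C3 1.25-fold at 48 h (0.32 ± 0.079, adjusted p = 0.0056), and the change at 6 h was -0.04 ± 0.088 (adjusted p = 0.799). The JQ1 effect at 6 h was 0.07 ± 0.088 (95% interval -0.12 to 0.26, adjusted p = 0.536), and at 48 h JQ1 lowered C3 2.08-fold (-1.06 ± 0.079, adjusted p = 1.05e-07). The JQ1 arrays at 48 h stood 1.67-fold below unstimulated cells (-0.74 ± 0.079, adjusted p = 3.3e-06).

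Serping1, the inhibitor of C1r and C1s, fell most of the 5 genes with JQ1 at 48 h. It stood at 9.18, 9.42 and 9.40 in unstimulated cells, at 9.33 and 9.35 after 6 h of PE, and at 9.67, 9.49 and 9.56 after 48 h of PE. With JQ1 the levels were 8.92, 8.90 and 8.83 at 6 h and 7.22, 7.09 and 7.25 at 48 h. Unstimulated and 6 h PE arrays overlapped, 48 h PE arrays lay above both, and the JQ1 groups lay below them in 2 steps. Serping1 was lowered 1.37-fold by JQ1 at 6 h (-0.46 ± 0.077, adjusted p = 2.3e-04) and 5.22-fold at 48 h (-2.38 ± 0.069, adjusted p = 1.83e-11), the change ranked 100 from the largest fall among the 13184 genes. Its rise after 48 h of PE was 0.24 ± 0.069 (adjusted p = 0.0134) and did not pass when the first unstimulated array or the first DMSO array at 48 h of PE was left out (adjusted p = 0.0563 to 0.0608).

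Cd55, the regulator that dismantles the enzymes cleaving C3, was the member that PE raised most. Its brighter probe set read 7.77, 7.79 and 7.74 unstimulated, 9.70 and 9.73 after 6 h of PE, and 8.69, 8.59 and 8.53 after 48 h. JQ1 arrays read 10.83, 10.57 and 10.70 at 6 h and 8.03, 7.94 and 7.96 at 48 h. No 2 groups overlapped: the order ran from unstimulated through JQ1 at 48 h, DMSO with PE at 48 h and DMSO with PE at 6 h to JQ1 at 6 h. PE raised Cd55 3.87-fold at 6 h (1.95 ± 0.067, adjusted p = 1.31e-09), the rise ranked 21 of all genes, and 1.79-fold at 48 h (0.84 ± 0.060, adjusted p = 2.42e-07). JQ1 raised it a further 1.98-fold at 6 h (0.98 ± 0.067, adjusted p = 9.05e-08), whereas at 48 h it was 1.54-fold lower with JQ1 (-0.63 ± 0.060, adjusted p = 1.17e-06). Against unstimulated cells, JQ1 with PE stood on this probe set 7.65-fold higher at 6 h (2.93 ± 0.060, adjusted p = 1.49e-12) and 1.16-fold higher at 48 h (0.21 ± 0.060, adjusted p = 0.00878).

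The dimmer Cd55 probe set, 1370406_a_at, gave the same pattern at 6 h and another sign at 48 h of JQ1. It read 6.17, 6.27 and 6.26 unstimulated, 7.62 and 7.47 after 6 h of PE, and 8.67, 8.38 and 8.29 with JQ1 at 6 h. At 48 h of PE it read 6.95, 6.93 and 7.01 with DMSO and 7.15, 7.14 and 7.31 with JQ1, so here the JQ1 arrays were the higher ones. In the fit of all 20217 probe sets other than controls, JQ1 raised it by 0.90 ± 0.095 at 6 h (adjusted p = 5.09e-06) and by 0.24 ± 0.085 at 48 h (adjusted p = 0.0318), while the brighter probe set fell by 0.63 ± 0.062 at 48 h (adjusted p = 1.72e-06). The small rise did not pass without replicate 1 or 2 of DMSO or replicate 3 of JQ1 at 48 h (adjusted p = 0.0735 to 0.126). With both probe sets averaged, the JQ1 effect on Cd55 at 48 h was -0.19 (adjusted p = 0.0155). Against unstimulated cells, 1370406_a_at stood 2.48-fold higher after 6 h of PE with DMSO. With JQ1 and PE it stood 4.64-fold higher at 6 h and 1.95-fold higher at 48 h (0.97 ± 0.085, adjusted p = 7.06e-07). The direction of Cd55 under JQ1 at 48 h therefore depends on the probe set, as does its distance there from unstimulated cells. Which transcripts each one reads was not tested.

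**Figure D1:**
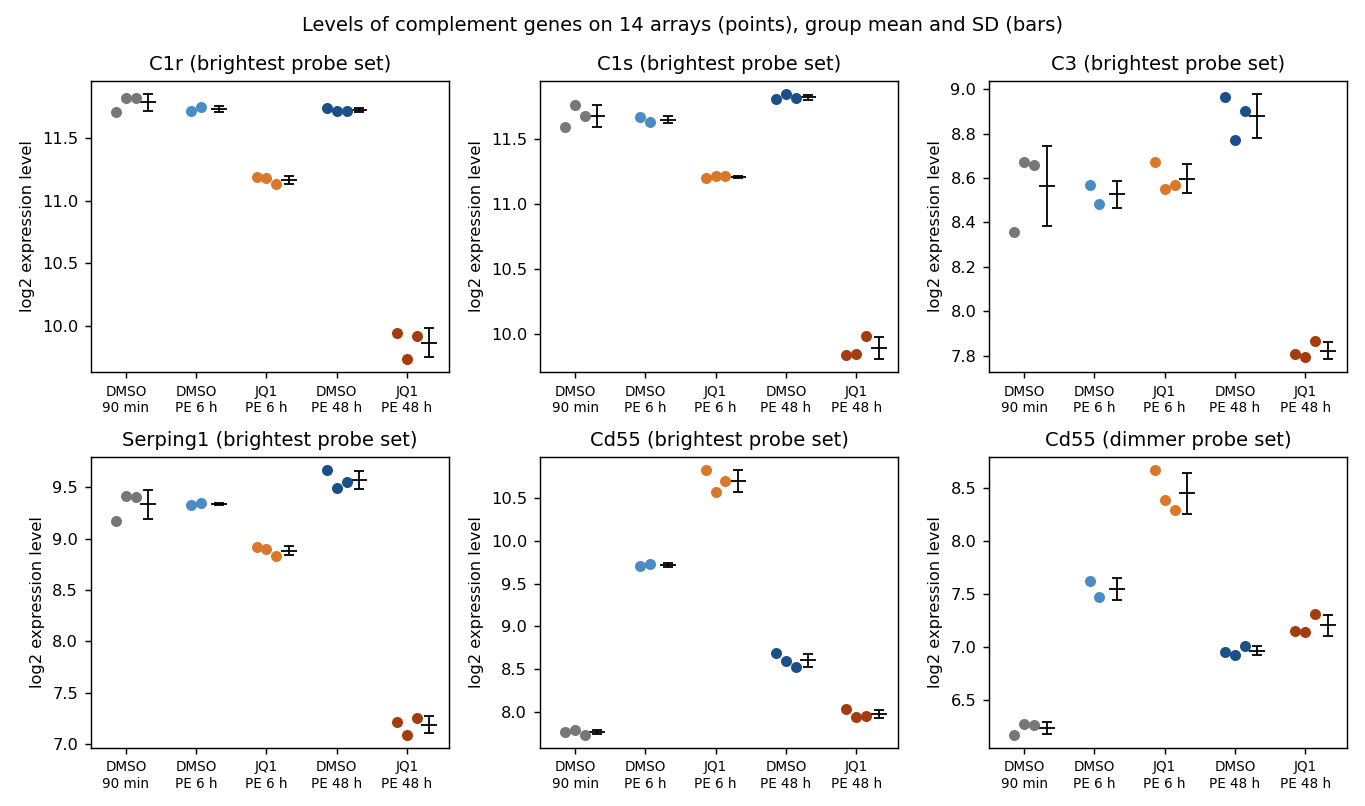
Log2 expression level (vertical axes, each with its own range) of C1r, C1s, C3, Serping1 and Cd55 on every array, in 5 groups (horizontal axis). Points are arrays, and the bars beside them are the group mean and SD (n = 3, or 2 for DMSO with PE at 6 h). JQ1 arrays at 48 h are the lowest for C1r, C1s, C3 and Serping1, while Cd55 peaks with JQ1 at 6 h on both of its probe sets.

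The 4 probe sets listed for both C2 and Cfb were lower with JQ1 than with DMSO at 48 h. C2 supplies the protease of the classical enzyme that cleaves C3 and factor B that of the alternative one, and the genes are direct neighbours on chromosome 20. The brightest of the 4, 1389470_at, read 7.88, 8.07 and 8.45 unstimulated, 8.20 and 8.28 after 6 h of PE, and 8.07, 7.94 and 7.89 after 48 h of PE. With JQ1 it read 8.05, 7.98 and 7.75 at 6 h and 6.44, 6.45 and 6.83 at 48 h. The JQ1 arrays at 48 h lay below every other array, and at 6 h the JQ1 arrays lay just below the DMSO ones, within the range of the unstimulated arrays or below it. JQ1 lowered this probe set 2.63-fold at 48 h (-1.40 ± 0.14, adjusted p = 2.21e-06), and at 6 h the change was -0.32 ± 0.16 (adjusted p = 0.121).

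The other 3 shared probe sets moved less at 48 h of JQ1. The change was -0.63 ± 0.077 for 1383391_a_at (adjusted p = 1.4e-05), -0.35 ± 0.072 for 1383392_at (adjusted p = 0.00107) and -0.46 ± 0.083 for 1393219_at (adjusted p = 3.7e-04), which was dim in every group. All 4 thus passed, against 24.5% of all probe sets called lower. At 6 h, 1383391_a_at (-0.24 ± 0.087, adjusted p = 0.0357) and 1383392_at (-0.25 ± 0.081, adjusted p = 0.0215) passed, against 24.0% of all probe sets called lower, but centring the arrays (adjusted p = 0.146 and 0.136) or repeating quantile normalization (adjusted p = 0.145 and 0.139) ended both calls. Neither call passed when DMSO replicate 2 or JQ1 replicate 1 at 6 h was left out, nor did the first without replicate 1 of that DMSO group or replicate 3 of that JQ1 group (adjusted p = 0.0601 to 0.187 for the first and 0.0662 to 0.145 for the second). No shared probe set passed for PE at 6 h or 48 h (changes of -0.16 to 0.21).

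**Figure D2:**
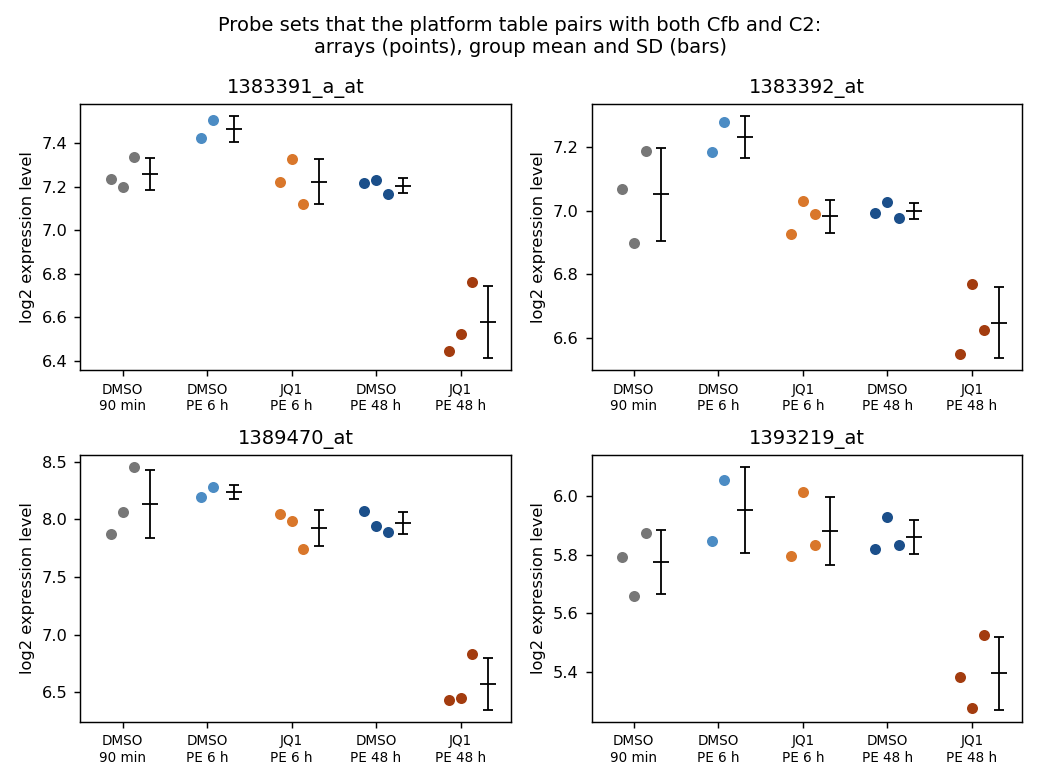
Log2 level (vertical axes, each with its own range) of the 4 probe sets that the platform table pairs with both Cfb and C2, on every array in 5 groups (horizontal axis). Points are arrays, bars are the group mean and SD, and the JQ1 arrays at 48 h are the lowest on each probe set.

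Setting the comparisons side by side, 1 of the 5 genes passed at 6 h of PE and all 5 passed at 48 h of JQ1. The members were chosen with earlier results of these data known, so the counts and shares below are a description only. At 6 h of PE, 1 of 5 (Cd55) rose, against 18.3% of all genes called higher, and 0 fell, against 18.9%. At 48 h of PE, 4 of 5 rose (Cd55, C3, Serping1 and C1s), against 21.4%, with Cd55 the largest. The count at 48 h was 2 without unstimulated replicate 1 or replicate 1 of DMSO with PE at 48 h. With JQ1 at 6 h, 3 of 5 fell (C1r, C1s and Serping1), against 28.8%, and 1 rose (Cd55), against 25.5%. With JQ1 at 48 h, 5 of 5 fell on the brightest probe sets, against 29.6%, and 4 of them (all but Cd55) fell at least 2-fold, against 6.04%. Read on its dimmer probe set, Cd55 rose, which leaves 4 of 5 lower and 1 higher, against 30% of all genes called higher. The median change of the 5 was -1.85 at 48 h of JQ1 and -0.44 at 6 h, beside 0.02 and 0.00 over all genes. Of all calls, 50.4% were raised for JQ1 at 48 h and 47.0% at 6 h, and centring the arrays on their medians made these 62.3% and 60.1%, with no member changing direction. Because unstimulated cells carry the 90 min label, PE and time cannot be told apart in the PE comparisons. PE comparisons share the unstimulated arrays, and each JQ1 comparison shares its DMSO arrays with the PE comparison of that time.

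**Figure D3:**
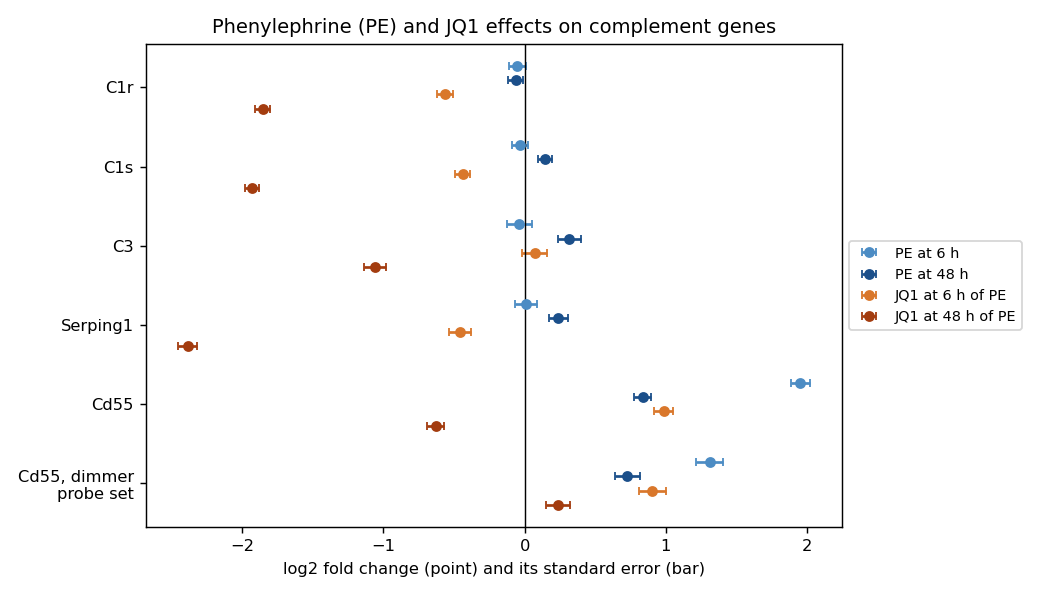
Log2 fold changes (horizontal axis, points) with their standard errors (bars) for 5 complement genes and the dimmer Cd55 probe set, for PE against unstimulated cells and JQ1 against DMSO, each at 6 h and 48 h. The 48 h JQ1 points of C1r, C1s, C3 and Serping1 lie left of -1, and the 6 h PE points of Cd55 lie right of 1.

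On the brightest probe sets the JQ1 effect at 48 h was lower than at 6 h for all 5 genes, by at least 2-fold each, against 2.59% of all genes lower by that much (18.3% lower at the threshold alone). The difference was -1.93 ± 0.10 for Serping1 (adjusted p = 3.45e-08), -1.61 ± 0.090 for Cd55 (adjusted p = 4.8e-08) and -1.49 ± 0.073 for C1s (adjusted p = 1.42e-08). C1r differed by -1.29 ± 0.079 (adjusted p = 1.03e-07) and C3 by -1.13 ± 0.12 (adjusted p = 1.01e-05). For Cd55 the brighter probe set changed sign between the times, and the dimmer one, 1370406_a_at, differed by -0.66 ± 0.13 (1.58-fold, adjusted p = 0.00143) without a change of sign. Within the DMSO arms, Cd55 fell between 6 h and 48 h of PE (-1.11 ± 0.067, adjusted p = 1.11e-07; 1 of 5 lower, against 18.4%). C3 (0.35 ± 0.088, adjusted p = 0.00761), Serping1 (0.23 ± 0.077, adjusted p = 0.0345) and C1s (0.17 ± 0.054, adjusted p = 0.0244) rose (3 of 5, against 16.3%). Those rises depended on single arrays: without DMSO replicate 2 at 6 h of PE none of the 3 passed, and without replicate 1 only C3 did. Of the arrays at 48 h, leaving out DMSO replicate 1 or 3 ended the Serping1 call (adjusted p = 0.114 and 0.062), and leaving out replicate 2 ended the C1s call (adjusted p = 0.0664).

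Against unstimulated cells, the JQ1 arms ended below the starting level for all but Cd55. At 6 h C1r (-0.62 ± 0.053, adjusted p = 3.33e-07), C1s (-0.47 ± 0.048, adjusted p = 2.03e-06) and Serping1 (-0.45 ± 0.069, adjusted p = 7.58e-05) were lower, 3 of 5 against 31.7%, and Cd55 was higher, 1 of 5 against 30.9%. At 48 h 4 of 5 were lower, against 29.2%, and 1 was higher, against 31.6%. Serping1 stood 4.42-fold lower at 48 h, C1r 3.77-fold and C1s 3.45-fold.

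RefSeq promoter sequences of the GRCr8 build were at hand for 3 of the 7 genes, C1r, C3 and Cd55, and are shown because these members took different courses under JQ1. C1s, C2, Cfb and Serping1 had no entry. The 250 bases before each gene's start are printed in lower case, 5′ to 3′ on the gene's strand, and capitals mark motif matches.
C1r (chr4:159098763-159099012, plus strand): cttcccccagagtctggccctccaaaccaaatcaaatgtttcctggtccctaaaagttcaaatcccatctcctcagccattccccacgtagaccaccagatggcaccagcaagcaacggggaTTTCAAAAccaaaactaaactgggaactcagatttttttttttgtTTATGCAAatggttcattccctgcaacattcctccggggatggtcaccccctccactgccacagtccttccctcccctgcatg
C3 (chr9:2201340-2201589, minus strand): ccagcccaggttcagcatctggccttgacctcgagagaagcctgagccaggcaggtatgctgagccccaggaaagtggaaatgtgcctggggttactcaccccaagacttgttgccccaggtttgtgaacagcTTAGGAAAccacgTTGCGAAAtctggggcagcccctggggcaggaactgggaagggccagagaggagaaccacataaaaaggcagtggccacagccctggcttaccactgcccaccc
Cd55 (chr13:44438102-44438351, minus strand): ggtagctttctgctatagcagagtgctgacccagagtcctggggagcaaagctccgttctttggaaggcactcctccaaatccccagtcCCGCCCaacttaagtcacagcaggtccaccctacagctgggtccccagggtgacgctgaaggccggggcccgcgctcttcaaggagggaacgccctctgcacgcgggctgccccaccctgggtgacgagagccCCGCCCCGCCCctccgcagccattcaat

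Both strands were searched for 6 motifs, and 2 of them matched. The C/EBP motif TTNNGNAA, bound by factors of the acute phase response, matched at 2 places in C1r (TTTCAAAA on the minus strand and TTATGCAA) and at 2 in C3 (TTAGGAAA and TTGCGAAA), and it occurs in 37.2% of the 33469 promoters of this length. The Sp1 motif GGGCGG matched at 3 places in Cd55, of which the last 2 share 1 base, and occurs in 30.5% of promoters. The STAT motif TTCNNNGAA (7.67% of promoters), the interferon element ISRE (GAAA, 2 bases of any kind, GAAA; 3.41%), a form of the NF-kappaB motif (GGG, 2 bases of any kind, TTTCC; 1.30%) and the AP-1 motif TGANTCA (6.34%) did not match in these windows. A match is a description of letters and not a measured site.

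Of 55 other complement genes listed, 38 were measured, and 23 of these were dim in every group. The dim ones included the C1q chains C1qa, C1qb and C1qc (group means 5.08 to 6.13), which complete the C1 complex, and the terminal genes C5, C6, C8a, C8b and C9 (3.30 to 5.96). With JQ1 at 48 h, 11 of 38 fell and 7 rose (47.4% passing, beside 59.6% of all genes), with a median of -0.03. At 6 h of JQ1, 9 fell and 6 rose (39.5% passing, beside 54.3%).

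Some receptors and regulators in that list changed at least 1.5-fold with PE or with JQ1 at 6 h or 48 h. C3ar1, the receptor for the C3a fragment, rose after 48 h of PE (1.13 ± 0.089) from a dim level and was lowered by JQ1 to dim levels at 6 h (-0.78 ± 0.10) and 48 h (-1.20 ± 0.089). Cr1l, the rodent surface inhibitor known as Crry, fell with JQ1 at 6 h (-0.60 ± 0.038), and clusterin, Clu, which binds terminal complexes, rose at 48 h (0.61 ± 0.041). Masp1, a protease of the lectin branch, fell after 48 h of PE (-1.34 ± 0.064), and the lectin Colec11 fell to a dim level with JQ1 at 48 h (-0.85 ± 0.11). The highest adjusted p among these changes was 2.29e-05. In the same 4 comparisons (PE or JQ1, at 6 h or 48 h) the other changes of that size were in Cd93, dim in every group (0.94 with PE at 6 h, -1.42 with JQ1 at 6 h and -1.50 with JQ1 at 48 h), and in C1qtnf1 and C1qtnf6, named for a C1q-like domain. With JQ1, C1qtnf1 changed by -1.09 at 6 h and -1.01 at 48 h, and C1qtnf6 by -0.59 at 6 h.

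**Figure D4:**
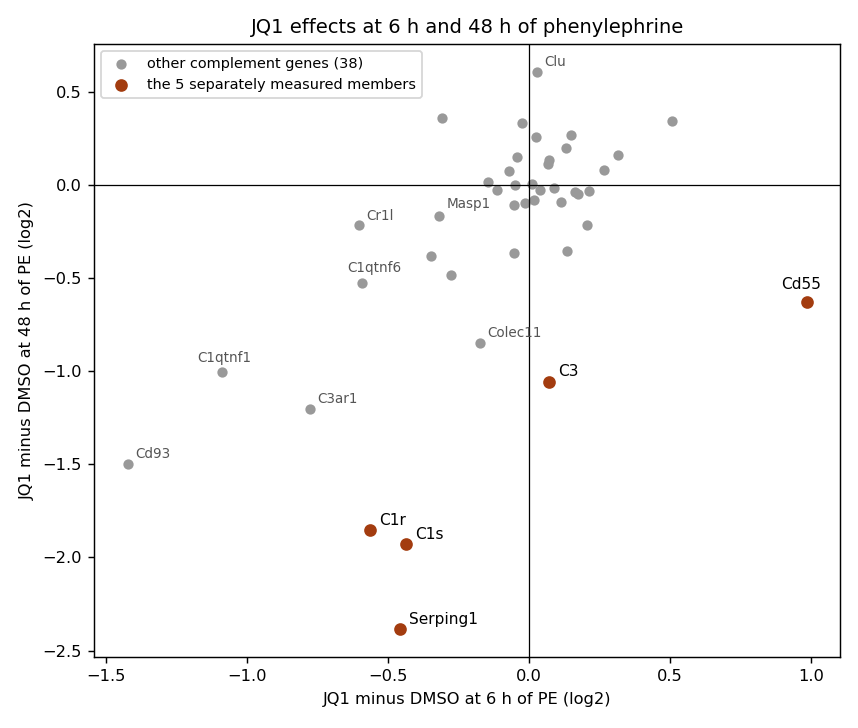
JQ1 minus DMSO at 6 h of PE (horizontal axis, log2) against the same at 48 h (vertical axis, log2) for the 5 separately measured members (brown) and the 38 other complement genes (grey). C1r, C1s and Serping1 lie lowest, C3 lies near 0 at 6 h only, and Cd55 lies to the right.

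Of 22 cytokines, receptors and factors tied to the control of complement genes, 18 were measured. The list holds drivers and also inhibitors of their signalling, Nfkbia and Socs3, so its counts mix both. PE at 6 h raised 10 and lowered 3 of the 18, against 18.3% and 18.9% of all genes. The cytokine gene Il6 rose 3.93-fold from a dim level (1.97 ± 0.15, adjusted p = 6.83e-07), with Cebpd, a C/EBP factor (0.65 ± 0.070), and Nfkb2 (0.59 ± 0.058), while Irf1 fell (-0.55 ± 0.044). At 48 h of PE Il6 was still higher (1.50 ± 0.14), and Il1b (-0.95 ± 0.15), Nfkbia (-0.51 ± 0.047) and Il6r (-0.46 ± 0.093) were lower, among 2 raised and 7 lowered, against 21.4% and 22.6%. JQ1 lowered 6 and raised 3 at 6 h, against 28.8% and 25.5%, led by Il6 (-1.47 ± 0.15) and Il1b (-1.07 ± 0.17), followed by Il1r1, dim in every group (-0.37 ± 0.080), and Nfkb2 (-0.31 ± 0.058). It lowered 6 and raised 2 at 48 h, against 29.6% and 30%. Il6 fell 9.31-fold to a dim level (-3.22 ± 0.14, adjusted p = 4.99e-10), Il1b (-0.81 ± 0.15) and Nfkb2 (-0.62 ± 0.052) fell, and Stat3 rose (0.54 ± 0.061). No change named here had an adjusted p above 0.00162, but the Il1r1 call was lost with its probe sets averaged (-0.11, adjusted p = 0.37).

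Markers of other cells moved with the JQ1 groups. The mean log2 level of 12 fibroblast markers, none dim in every group, was 10.37 to 10.42 over the DMSO arrays at 48 h of PE and 9.02 to 9.05 over the JQ1 arrays, and all 12 fell (median -1.39), against 29.6% of all genes, 8 of them at least 2-fold, against 6.04%. At 6 h the ranges were 10.56 to 10.58 and 10.12 to 10.16, with 8 of 12 lower (median -0.26), against 28.8%. The list holds Dcn, Postn, Pdgfra and Col1a1. Of 10 smooth muscle and pericyte markers, 8 fell and 1 rose at 48 h of JQ1, against 29.6% and 30% of all genes. Their averages were 8.83 to 8.86 with JQ1 and 9.67 to 9.69 without. The 12 macrophage and leukocyte markers averaged 6.05 to 6.10 with DMSO and 5.78 to 5.83 with JQ1 at 48 h. Of these, 3 of 12 were lower, a share near the 29.6% of all genes, and 0 were higher, against 30%. Mean levels went from 7.68 to 6.45 for Cd14, from 9.21 to 8.34 for Lyz2 and from 7.01 to 6.59 for Fcer1g. Ptprc, Cd163, Mrc1 and C1qa were dim in every group. With JQ1 at 6 h, 5 of these 12 markers were lower and 0 higher, against 28.8% and 25.5% of all genes. The 10 endothelial markers averaged 5.37 to 5.68 in all groups, with 6 dim throughout, and the 6 epicardial and mesothelial markers 6.63 to 7.22. At 48 h the endothelial average was 5.57 to 5.61 with DMSO and 5.37 to 5.43 with JQ1. There 5 of the 10 were lower and 1 higher, against 29.6% and 30% of all genes. Cardiomyocyte markers averaged 13.80 to 13.81 with DMSO and 13.60 to 13.64 with JQ1 at 48 h. Here 6 of 11 were lower and 4 higher, against 29.6% and 30% of all genes. Among the cardiomyocyte markers mean levels went from 13.82 to 12.27 for Tnni3, from 14.28 to 13.31 for Myl3 and from 12.93 to 13.58 for Mybpc3. In such bulk RNA, fewer cells of a type and less RNA per cell cannot be told apart, and the part of these cells in the complement changes was not tested.

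**Figure D5:**
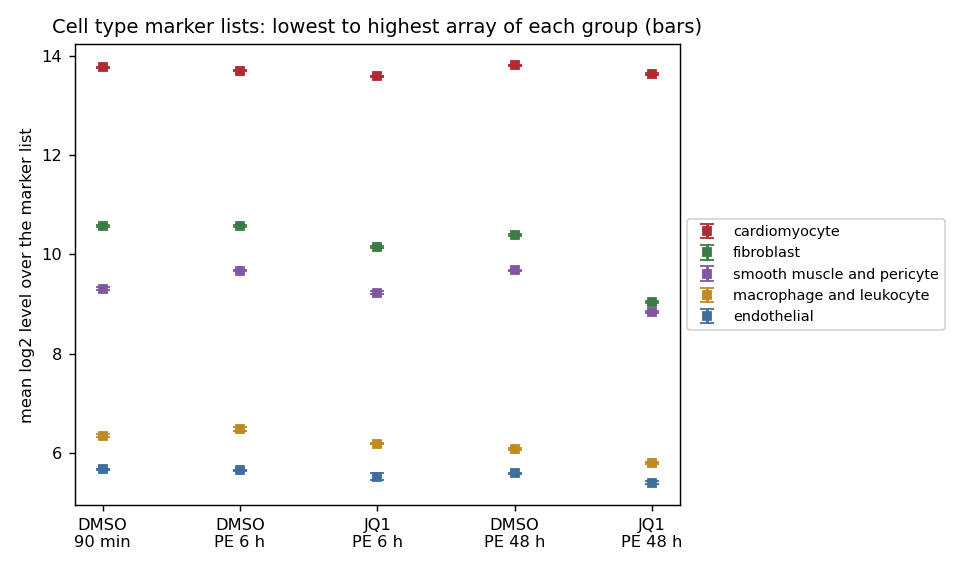
Mean log2 level over 5 cell type marker lists (vertical axis) in the 5 groups (horizontal axis). Bars run from the lowest to the highest array of a group and squares mark their midpoint. The fibroblast list drops from 10.37 or above without JQ1 to 9.05 or below with JQ1 at 48 h, while the cardiomyocyte list stays above 13.5.

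The genes whose levels over the 14 arrays ran most like each member were taken by Pearson's r, as a description, among genes above the dim limit. The arrays fall into 5 groups, which sets much of such an r. For C1r they were Fxyd6 (0.996), Gpx7 (0.996) and the fibroblast marker Dcn (0.995). For C1s they were Serping1 (0.996), Ccn3 (0.995) and Dpep1 (0.994), and for Serping1 they were Chi3l1 (0.997), C1s (0.996) and Aspn (0.995). C3 ran most like Tent4a (0.973), Cdh13 (0.973) and Casq1 (0.968), so its closest matches were less close. Cd55 ran most like Pvr (0.996), Lmcd1 (0.996) and Bmal1 (0.993). No gene was a match of several members, and only C1s and Serping1 were matches of each other.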

How the data were processed

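The authors deposited log2 expression values per probe set for 14 rat arrays (20223 probe sets, values from 2.71 to 14.70). That they were normalized between arrays is inferred from the near-equal distributions. Summarization and filtering are not given in the sources used here, and limma is listed, with no role stated, in the submitters' processing notes. Groups came from the array titles. The platform annotation named 1 symbol for each of 18510 probe sets. A further 305 had several, 1402 had none and 6 were controls. Symbols were updated through gene identifiers to the GRCr8 RefSeq table (18461 matched). The brightest probe set per gene was used, leaving 13184 genes. All arrays entered 1 fit with a mean per group (lmFit and eBayes, limma 3.58.1, R 4.3.3, 9 residual degrees of freedom), and a further fit took 20217 probe sets. The fit was tested on simulated data. Array number limits the precision. The members and gene lists were chosen with earlier results of these data known. Named were all members. Other complement genes were named if past the threshold, at least 1.5-fold and without overlap for PE or JQ1 at 6 h or 48 h. Of the listed cytokines, receptors and factors, up to 4 per comparison with the largest change were named.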

Additional observations from a re-analysis of the deposited data

Results flagged for a closer look

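The JQ1 effect at 48 h differed from that at 6 h, by the test of the difference itself in the limma fit, for all 5 separately measured members. The differences on the log2 scale were -1.93 for Serping1, -1.61 for Cd55, -1.49 for C1s, -1.29 for C1r and -1.13 for C3. On the other probe sets of the members the difference was -0.66 for 1370406_a_at (Cd55), -1.08 for 1389470_at, -0.39 for 1383391_a_at and -0.39 for 1393219_at, the last 3 shared by Cfb and C2. It did not pass for the remaining shared probe set, 1383392_at (-0.10 ± 0.11, adjusted p = 0.539). The 1383391_a_at difference did not pass without replicate 1 of DMSO or replicate 2 of JQ1 at 6 h (adjusted p = 0.0816 and 0.0516), and that of 1393219_at without any of 5 arrays (those same 2, and at 48 h replicate 2 of DMSO and replicates 1 and 2 of JQ1; adjusted p = 0.0527 to 0.14). Of the 38 other complement genes measured, the difference passed upward in 4 and downward in 4, and 30 did not pass (21.1% passing). Over all 13184 genes 2695 passed upward and 2416 downward. The difference was -0.42 for C3ar1, -0.67 for Colec11, 0.39 for Cr1l and 0.58 for Clu. It also passed for 4 genes chosen after their values were seen: 0.67 for C8g, part of the terminal complex, where the JQ1 effect went from -0.31 at 6 h to 0.36 at 48 h, 0.36 for Cd59b, an inhibitor of that complex, and -0.49 for Cfd and -0.42 for C4bpa, both dim in every group. The C3ar1 difference did not pass on repeating quantile normalization (adjusted p = 0.0638) or without any of 5 arrays, one at a time (DMSO replicate 2, JQ1 replicates 1 and 3 at 6 h, and replicate 3 of DMSO and of JQ1 at 48 h; adjusted p = 0.0541 to 0.101). The Cr1l difference did not pass with probe sets averaged (adjusted p = 0.0661). The Cfd difference did not pass without any of 5 arrays (DMSO replicate 2 and JQ1 replicates 2 and 3 at 6 h, and DMSO replicate 3 and JQ1 replicate 1 at 48 h, adjusted p = 0.0512 to 0.137). That of C4bpa did not pass on repeating quantile normalization (adjusted p = 0.0675), in a fit of the compared groups only (adjusted p = 0.0538) or without any of 6 arrays (DMSO replicate 2 and JQ1 replicates 1 and 3 at 6 h, and DMSO replicate 1 and JQ1 replicates 2 and 3 at 48 h, adjusted p = 0.0746 to 0.132).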

How the results depend on the processing

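The alternatives averaged a gene's probe sets, centred the arrays, repeated quantile normalization, left out dim genes, let the prior follow intensity, fitted only the groups compared, added a replicate block, and left out each array in turn. Of 1632 values of members and their probe sets under these, 1568 kept their direction and side of the threshold, 60 lost a call, 4 gained one and 0 reversed. The falls of C1r, C1s, C3 and Serping1 with JQ1 at 48 h passed under each of these. That of Cd55 passed too but shrank from -0.63 to -0.19 with its probe sets averaged, and its dimmer probe set rose (0.24). Leaving out 1 array, the members called ranged from 2 to 4 for PE at 48 h (4 with all arrays) and from 1 to 4 for late against early PE (4 with all arrays). Centring moved the share of calls that were raised, against unstimulated cells, from 49.3% to 61.2% for JQ1 at 6 h and from 52.0% to 65.5% at 48 h, and the median of all genes there from 0.03 to 0.13 at 48 h. The titles number the replicates. Deviations of arrays with the same number had r of -0.27 to 0.18 over 26 pairs of arrays, 3 of them over 0.1. For different numbers r was -0.21 to 0.27 over 52 pairs, 11 of them over 0.1. Each deviation was taken from a mean of 2 or 3 arrays, which ties these r values to each other. The check therefore cannot exclude a pairing. With the replicate block 3 members were called for late against early PE in place of 4, as Serping1 did not pass (adjusted p = 0.0743), and 2 shared probe sets lost that call. The shared probe set 1393219_at lost its difference between JQ1 effects (adjusted p = 0.0506). With 1 array left for DMSO at 6 h of PE, that array is assumed to vary like the other groups.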
